A study of Mus musculus with 4 samples.

Results

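Kupffer cells are the resident macrophages of the liver, and the cells described here are those in which droplet sequencing caught messages of both Timd4 and Clec4f. Timd4 encodes Tim-4, a receptor for phosphatidylserine on dying cells, and Clec4f encodes a lectin that in the mouse liver marks Kupffer cells. Members were chosen on raw unique molecular identifiers (UMIs, 1 for each captured transcript). A cell was kept if 200 or more genes were detected in it and its mitochondrial UMIs did not exceed 10%. A member had a summed C1qa, C1qb and C1qc level of at least 5 per 1000 UMIs, at least 1 UMI each of Clec4f and Timd4, none of Cd3d, Cd3e, Cd3g or Cd79a, and not both Mki67 and Top2a. This left 1580 cells of 6237 kept cells and 6927 deposited barcodes. The mice were C57BL/6J and ate a control diet (libraries control 1 and control 2) or the Amylin liver NASH diet (NASH 1 and NASH 2), a diet used to bring about nonalcoholic steatohepatitis. Liver cells that are not hepatocytes were freed with flavopiridol, which blocks transcription, in all 4 libraries, and were sorted as CD45+ CD146-, that is as leukocytes without an endothelial marker. The sources used here give no age, sex, further genotype or time on diet, and do not say whether each library came from its own mouse. The p-values of the diet test therefore measure the spread between 2 libraries per diet, which may be technical. Those of the later test between gates measure how the difference between 2 gates of a library varies over the same libraries.

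Kupffer cells settle in the liver before birth and then renew themselves. They line the sinusoids, take up dying cells, aged red cells and lipoproteins, and return the iron of heme to the blood. Tim-4 is lost from the liver macrophage pool in many injuries, in which cells derived from monocytes enter the niche and can take on Clec4f before they take on Timd4. Timd4 is therefore widely used to tell long-resident from newly seeded Kupffer cells, although a UMI of Timd4 in a droplet is not the protein on the cell.

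Members numbered 692, 568, 112 and 208 in control 1, control 2, NASH 1 and NASH 2. Their UMIs summed to 2614024, 1974410, 1056262 and 1804675, so that the NASH 1 sum is the least precise. The median member held 3464 and 3213.5 UMIs on the control diet but 9185.5 and 8256.5 on the NASH diet, and its mitochondrial share was 6.14% and 5.96% against 3.94% and 3.51%. Depth and mitochondrial share thus moved with diet in every library, and their part in the results was not tested except where an alternative at equal depth or at most 5% mitochondrial UMIs is given. At most 1 member barcode was shared by any pair of libraries.

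The label was checked against markers other than those of the gate. Vsig4, a complement receptor of resident macrophages, had a UMI in 98.0%, 98.2%, 89.3% and 94.2% of members in control 1, control 2, NASH 1 and NASH 2 after each cell was thinned to 2000 UMIs. Cd5l, a secreted scavenger receptor protein that Kupffer cells make, had one in 100%, 99.8%, 97.3% and 99.5%. Thinning left out 86, 119, 0 and 1 shallower members. B cells of the same libraries, which lack both genes, held a UMI of Vsig4 in 24.5%, 14.5%, 10.4% and 7.69%, which is the level that RNA free in the droplets gives. Median UMIs of the B cells were 4415, 3505.5, 5501.5 and 5569. Both markers were thus far above that background in all 4 libraries, as the label says. Cd163 and Marco, which also belong to the Kupffer profile, were not high in every library, as described later.

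The values of the gate genes chose the members and are given without a test. Timd4 stood at 514, 618, 277 and 342 in control 1, control 2, NASH 1 and NASH 2, as counts relative to the summed UMIs of members and scaled by edgeR's TMM factors (normalised CPM, the level used from here on unless another is named). Clec4f stood at 4285, 4020.0, 4419.6 and 5177 and C1qa, a chain of complement C1q, at 4436, 4368, 6098 and 6908. A single Timd4 UMI admitted 42.3%, 35.9%, 48.2% and 35.6% of the members. When all members were thinned to 2000 UMIs, Timd4 kept a UMI in 72.6%, 78.8%, 38.4% and 47.3%. B cells of the unthinned libraries held a Timd4 UMI in 9.52%, 7.14%, 0% and 1.10%. Few cells lay at the edges of the C1q and Clec4f criteria: 7, 9, 1 and 0 members had a C1q sum of 5 to 6 per 1000 UMIs, and 6, 6, 3 and 1 cells that met the other criteria lay between 4 and 5. Clec4f was at exactly 1 UMI in 7, 11, 4 and 4 members, and 1, 3, 6 and 5 cells that met the other criteria had none. The mitochondrial limit had an edge that moved with diet: 41, 43, 1 and 2 members had 9 to 10% mitochondrial UMIs. A further 20, 28, 0 and 0 cells that met the other criteria exceeded 10% by at most 1 point. The cell filter kept 85.2%, 79.6%, 97.1% and 97.6% of deposited barcodes.

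The first comparison asks how large a part of the sorted cells the Timd4+ Clec4f+ cells were. They made up 52.4% (exact Clopper-Pearson 95% interval 49.7 to 55.1) and 39.5% (37.0 to 42.1) of kept cells in control 1 and control 2. In NASH 1 and NASH 2 they made up 7.04% (5.83 to 8.40) and 11.0% (9.64 to 12.5). Such intervals hold counting error alone. The mean share was 46.0% ± 9.09 (SD, n = 2) on the control diet and 9.03% ± 2.82 (SD, n = 2) on the NASH diet, a ratio of 5.09, and the libraries of the 2 diets did not overlap. With 2 libraries against 2 an exact permutation test, two-sided, cannot go below p = 0.33, so the share is given without a test. Among C1q-high cells alone the shares were 65.0%, 61.1%, 11.5% and 16.3%. Cells with Clec4f but no Timd4 UMI numbered 289, 269, 455 and 603, and C1q-high cells with neither Clec4f nor the excluded genes 7, 23, 220 and 267.

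Deeper NASH cells had a better chance of a Timd4 UMI. With cells thinned to 2000 UMIs, shallower cells left out and the gate applied again, the shares of the 1087, 1044, 1592 and 1885 cells that remained were 42.2%, 34.7%, 3.02% and 5.57%, a ratio of 8.96 between the diets. The ratio was larger at equal depth, over fewer cells of the control libraries. The 4 further thinning draws, added after the first was seen, gave 41.0 to 42.7%, 34.0 to 35.9%, 2.76 to 3.27% and 5.20 to 5.89% over all 5. A share depends on the sort and on how many other cells were captured, and it does not count cells per liver.

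**Figure D1:**
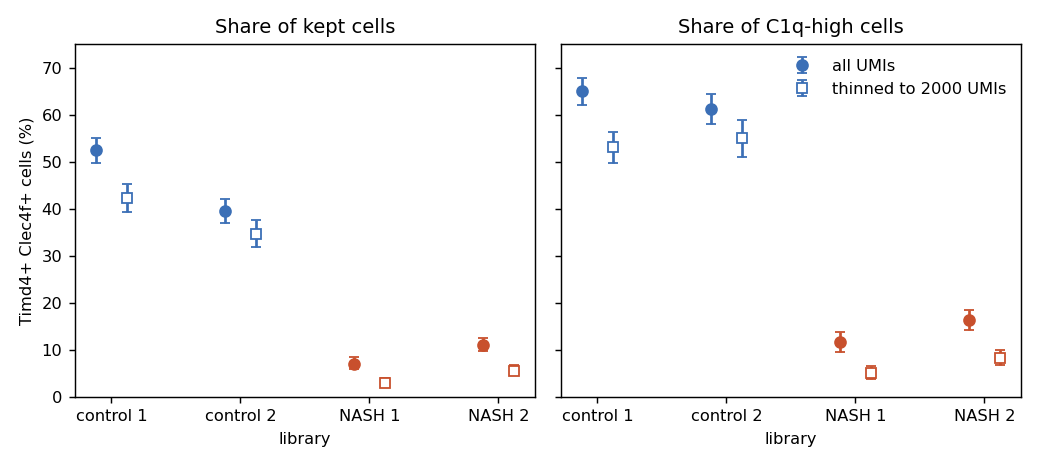
Share of Timd4+ Clec4f+ cells per library (%), of all kept cells (left) and of C1q-high cells (right), with exact 95% intervals; filled circles use all UMIs and open squares the cells with at least 2000 UMIs, thinned to that number. Both NASH libraries (red) lie below both control libraries (blue) in either panel, at 7.04% and 11.0% against 52.4% and 39.5% of kept cells.

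The second comparison asks what differed between the diets inside the gate. Of 8776 genes tested, 2480 (28.3%) were called at an adjusted p under 0.05, 1445 higher (16.5%) and 1035 lower (11.8%) in the NASH libraries, by edgeR's quasi-likelihood test on the 4 library sums with Benjamini-Hochberg adjustment. Levels in the 2 diets did not overlap for 5763 genes (65.7%). The largest rises were in genes of lipid- and scar-associated macrophages, and Cd163 fell from more than 1000 to below 25 normalised CPM. The median log2 fold change of all genes tested was -0.04 with TMM factors and -0.33 without them. Without factors the split of calls was 836 higher and 2312 lower, so small changes depend on the scaling, while no gene called with TMM factors changed sign without them. Calls fell to 951 higher and 552 lower without NASH 2, and lower calls fell to 658 without NASH 1. They were 423 higher and 271 lower of 5293 genes at equal depth, where 637 of the 2480 calls held and 39 had the opposite sign.

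**Figure D2:**
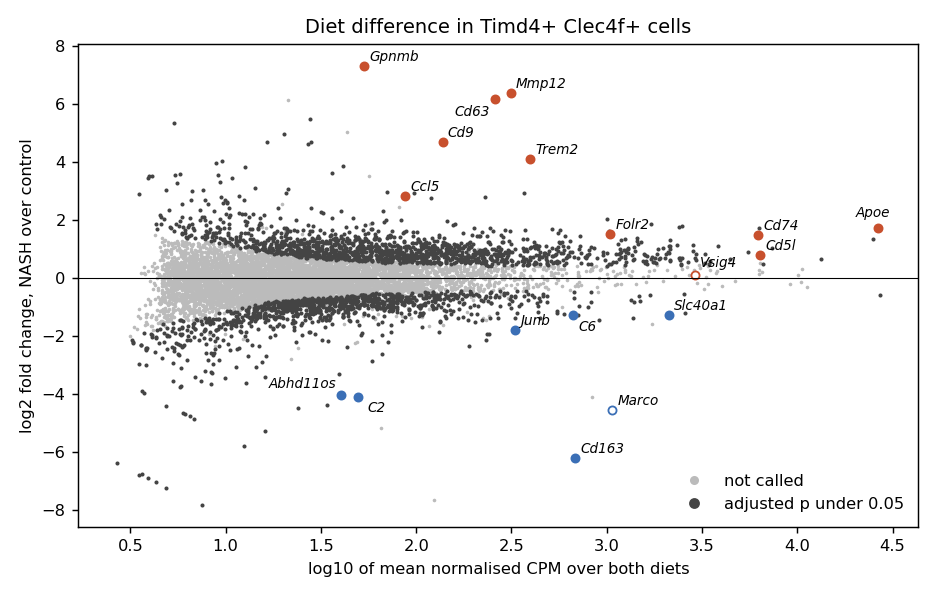
Log2 fold change of NASH over control (y) against the log10 of the mean normalised CPM (x) in Timd4+ Clec4f+ cells, 1 point per gene tested; dark points passed an adjusted p under 0.05. Labelled genes are named in the text, with open circles for Vsig4 and Marco, which did not pass; Trem2, Mmp12, Cd9, Cd63 and Gpnmb stand highest and Cd163 lowest among them.

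The largest rises among well-detected genes, beside those described below, were in Mmp13, a collagenase, S100a4 and S100a6, calcium-binding proteins of motile cells, and Ms4a7, a membrane protein of macrophages. Their log2 fold changes were 4.59 for Mmp13 (adjusted p = 1.29e-06), 4.67 for S100a4 (adjusted p = 0.00271), 2.97 for S100a6 (adjusted p = 2.21e-05) and 2.94 for Ms4a7 (adjusted p = 0.0024), by edgeR's quasi-likelihood test, and the Ms4a7 call was lost when either NASH library was left out. Neither S100a4 nor S100a6 was above the level in B cells in both NASH libraries, whereas Mmp13 and Ms4a7 were 12.3 and 14.1 and 3.09 and 3.21 times it in NASH 1 and NASH 2. The largest falls outside the lists included Lepr, the leptin receptor, at 148 and 81.1 normalised CPM on the control diet and 10.6 and 24.6 on the NASH diet, and Abhd11os, a transcript beside and opposite Abhd11 whose reads cannot be told from those of Abhd11 without strand, at 94.0 and 58.6 normalised CPM on the control diet and 2.12 and 6.16 on the NASH diet. Lepr fell with a log2 fold change of -2.61 (SE 0.468, edgeR quasi-likelihood, Benjamini-Hochberg adjusted p = 0.0121), and Abhd11os with a log2 fold change of -4.04 (SE 0.391, edgeR quasi-likelihood, Benjamini-Hochberg adjusted p = 1.33e-05).

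Among receptors and secreted products of Kupffer cells, 7 of the 29 tested genes of the identity list rose (3 at equal depth) and 12 fell, with a median log2 fold change of -0.62. The shares over all genes tested are those given above, 16.5% and 11.8%, and each count of a list below is to be set beside them. Cd163, the scavenger receptor for complexes of haptoglobin and hemoglobin (chromosome 6, 124304656 to 124330527, plus strand, mm10), was at 1345 and 1340.3 normalised CPM on the control diet and 9.55 and 24.0 on the NASH diet. The control libraries were nearly equal, and both NASH libraries were lower by more than an order of magnitude. Cd163 fell with a log2 fold change of -6.21 (SE 0.274, edgeR quasi-likelihood, Benjamini-Hochberg adjusted p = 1.29e-08). After thinning, 85.3%, 84.2%, 2.68% and 4.35% of members in control 1, control 2, NASH 1 and NASH 2 held a Cd163 UMI. In B cells of NASH 1 and NASH 2 that share was 0% and 1.1%, so the NASH members lay within a few percentage points of the background.

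Not all Kupffer receptors fell. Vsig4 (chromosome X, 96247203 to 96293438, minus strand) was at 2784 and 2766 normalised CPM on the control diet and 2999 and 3028 on the NASH diet. The libraries hardly differed, and the test did not pass (log2 fold change 0.12, SE 0.156, edgeR quasi-likelihood, Benjamini-Hochberg adjusted p = 0.617); over the alternatives the log2 fold change lay between -0.18 and 0.18. Cd5l was at 4229.6 and 5164 normalised CPM on the control diet and 7989 and 8101 on the NASH diet and rose, with a log2 fold change of 0.77 (SE 0.17, edgeR quasi-likelihood, Benjamini-Hochberg adjusted p = 0.00249). Folr2, a folate receptor of resident macrophages, was at 552 and 536 normalised CPM on the control diet and 1484 and 1597 on the NASH diet. It was higher in both NASH libraries than in either control library, with a log2 fold change of 1.50 (SE 0.156, edgeR quasi-likelihood, Benjamini-Hochberg adjusted p = 5.34e-06). Clec1b, a lectin receptor for podoplanin, rose as well (log2 0.97, edgeR quasi-likelihood, Benjamini-Hochberg adjusted p = 0.000801).

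Others fell. Mrc1, the mannose receptor, was at 953 and 1044 normalised CPM on the control diet and 372 and 443 on the NASH diet (log2 fold change -1.29, SE 0.161, edgeR quasi-likelihood, Benjamini-Hochberg adjusted p = 2.51e-05). Cdh5, an endothelial cadherin that Kupffer cells also express, was at 447 and 483 normalised CPM on the control diet and 244 and 251 on the NASH diet (log2 fold change -0.91, SE 0.152, edgeR quasi-likelihood, Benjamini-Hochberg adjusted p = 0.000311). Csf1r, the receptor for the growth factor CSF1 on which macrophages depend, was at 1685 and 1914 normalised CPM on the control diet and 1209 and 1112 on the NASH diet (log2 fold change -0.64, SE 0.158, edgeR quasi-likelihood, Benjamini-Hochberg adjusted p = 0.00596), and this call was lost without NASH 2 (adjusted p = 0.117 in the same edgeR test). In all 3 the diets did not overlap. Marco, a scavenger receptor for bacteria, was at 553 and 3552 normalised CPM on the control diet and 96.5 and 79.4 on the NASH diet. The 2 control libraries differed widely, and Marco did not pass (log2 fold change -4.56, SE 1.46, edgeR quasi-likelihood, Benjamini-Hochberg adjusted p = 0.173), although both NASH libraries lay below both controls.

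Next come the factors that hold the Kupffer program. Of 20 tested transcription factors of the lineage, 3 rose (0 to 3 over the alternatives) and 4 fell (3 to 8), and the share that rose was near that over all genes, 16.5%. Maf, a factor that restrains macrophage proliferation, Zeb2, needed to keep Kupffer identity in the mouse, Rxra, the partner of LXR and PPAR receptors, and Klf4 fell. Their log2 fold changes were -1.21 for Maf (adjusted p = 0.00012), -0.96 for Zeb2 (adjusted p = 0.000476), -0.85 for Rxra (adjusted p = 0.00167) and -1.67 for Klf4 (adjusted p = 0.0445), by edgeR's quasi-likelihood test after Benjamini-Hochberg correction, and the Rxra call was lost at equal depth (adjusted p = 0.192). The Klf4 call was lost in 5 of 13 alternatives, among them without control 1 and without NASH 1 (highest adjusted p = 0.122 under edgeR). Nr1h3, which encodes LXR alpha, was at 469 and 635 normalised CPM on the control diet and 451 and 407 on the NASH diet (log2 fold change -0.37, SE 0.168, edgeR quasi-likelihood, Benjamini-Hochberg adjusted p = 0.112). Id3 was at 448 and 364 normalised CPM on the control diet and 394 and 669 on the NASH diet (log2 fold change 0.39, SE 0.237, edgeR quasi-likelihood, Benjamini-Hochberg adjusted p = 0.256) and Spic, a factor of iron-recycling macrophages, at 69.7 and 243 normalised CPM on the control diet and 29.7 and 86.8 on the NASH diet (log2 fold change -1.34, SE 1.1, edgeR quasi-likelihood, Benjamini-Hochberg adjusted p = 0.49). None of these 3 passed, and the diets overlapped for Id3 and Spic; with 2 libraries per diet this does not show that they were equal.

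Iron and heme handling split within its list. Of 15 tested genes 3 rose and 6 fell, and 1 of the falls is Cd163. Slc40a1, ferroportin, the exporter of iron, was at 2466 and 3512 normalised CPM on the control diet and 1336 and 1134 on the NASH diet. It was lower in both NASH libraries (log2 fold change -1.28, SE 0.184, edgeR quasi-likelihood, Benjamini-Hochberg adjusted p = 0.000112). Slc48a1, which carries heme out of the phagolysosome, fell (log2 -1.10, edgeR quasi-likelihood, Benjamini-Hochberg adjusted p = 0.000477). Blvra and Blvrb, which reduce biliverdin, rose, by log2 1.21 and 0.71 (adjusted p = 0.000113 and 0.0024 in the same edgeR test). The Blvra call was lost at equal depth and the Blvrb call without NASH 2 and at most 5% mitochondrial UMIs (highest adjusted p = 0.0824 and 0.182, edgeR). Hpx and Trf, also counted among the falls, are on the hepatocyte list as well, and other hepatocyte messages moved with them as described later.

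Of 14 tested complement genes 6 fell and 2 rose, and neither rise, Itgax or Cr1l, was above the B cell level in both NASH libraries. C6, a component of the membrane attack complex, was at 898 and 976 normalised CPM on the control diet and 325 and 454 on the NASH diet (log2 fold change -1.26, SE 0.174, edgeR quasi-likelihood, Benjamini-Hochberg adjusted p = 6.38e-05). C2, a protease of the classical pathway, was at 81.5 and 107 normalised CPM on the control diet and 3.18 and 6.77 on the NASH diet (log2 fold change -4.11, SE 0.315, edgeR quasi-likelihood, Benjamini-Hochberg adjusted p = 2.12e-07). The NASH levels of C2 rest on 3 and 11 UMIs. C4b, a form of complement C4, which joins C2 in the next step of the pathway, was at 345 and 293 normalised CPM on the control diet and 36.1 and 85.6 on the NASH diet (log2 fold change -2.33, SE 0.373, edgeR quasi-likelihood, Benjamini-Hochberg adjusted p = 0.00891), and its call was lost when either control library was left out (highest adjusted p = 0.134 in that edgeR test).

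**Figure D3:**
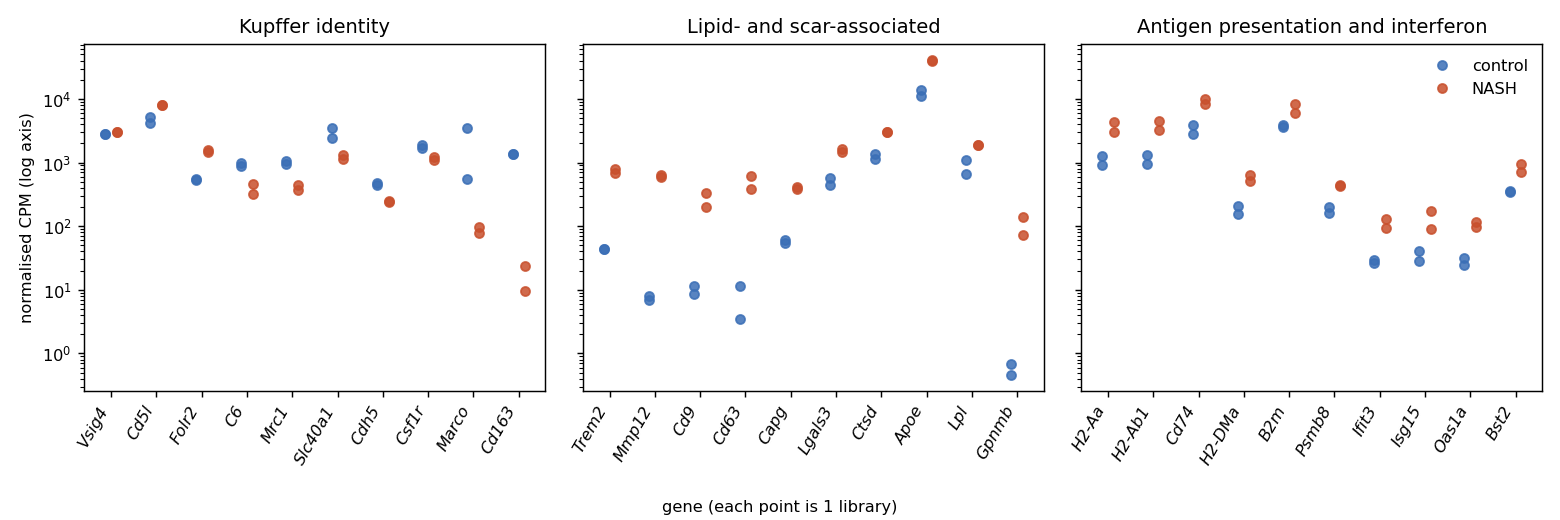
Normalised CPM (log axis) of 10 genes each of the Kupffer identity, lipid- and scar-associated, and antigen presentation and interferon groups in Timd4+ Clec4f+ cells, each point 1 library; the genes shown were chosen after their values were seen. Cd163 falls below 25 in both NASH libraries (red), Trem2 and Mmp12 stand above 600, and Vsig4 lies at about the same level in all 4.

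Of the 28 lipid- and scar-associated macrophage genes tested, 22 rose and none fell, with a median log2 fold change of 1.58 against -0.04 for all genes. Over the alternatives the number that rose was 19 to 24. Trem2, a lipid-sensing receptor of macrophages (chromosome 17, 48346401 to 48354147, plus strand), was at 44.0 and 43.5 normalised CPM on the control diet and 797 and 689 on the NASH diet. Each NASH library was far above both control libraries, which were nearly equal, with a log2 fold change of 4.08 (SE 0.177, edgeR quasi-likelihood, Benjamini-Hochberg adjusted p = 3.78e-11). After thinning, 6.44%, 5.79%, 70.5% and 59.9% of members in control 1, control 2, NASH 1 and NASH 2 held a Trem2 UMI, against 10.4% and 5.49% of B cells in NASH 1 and NASH 2. Mmp12, macrophage elastase (chromosome 9, 7344381 to 7369499, plus strand), was at 7.98 and 6.87 normalised CPM on the control diet and 633 and 603 on the NASH diet, with a log2 fold change of 6.35 (SE 0.209, edgeR quasi-likelihood, Benjamini-Hochberg adjusted p = 5.71e-13). The 2 NASH libraries lay close together.

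Cd63, a tetraspanin of late endosomes (chromosome 10, 128900989 to 128912822, plus strand), was at 3.47 and 11.4 normalised CPM on the control diet and 625 and 391 on the NASH diet (log2 fold change 6.15, SE 0.599, edgeR quasi-likelihood, Benjamini-Hochberg adjusted p = 0.00647). Cd9, a tetraspanin of the cell surface (chromosome 6, 125460266 to 125494791, minus strand), was at 11.4 and 8.7 normalised CPM on the control diet and 329 and 201 on the NASH diet (log2 fold change 4.67, SE 0.276, edgeR quasi-likelihood, Benjamini-Hochberg adjusted p = 2.88e-07). Lpl, lipoprotein lipase, was at 669 and 1110.4 normalised CPM on the control diet and 1858 and 1904 on the NASH diet (log2 fold change 1.08, SE 0.209, edgeR quasi-likelihood, Benjamini-Hochberg adjusted p = 0.00225), Ctsd, the protease cathepsin D, at 1122 and 1361 normalised CPM on the control diet and 3029.8 and 3071 on the NASH diet (log2 fold change 1.29, SE 0.164, edgeR quasi-likelihood, Benjamini-Hochberg adjusted p = 2.86e-05), and Cd68, a lysosomal glycoprotein of phagocytes, at 292 and 275 normalised CPM on the control diet and 821 and 838 on the NASH diet (log2 fold change 1.55, SE 0.154, edgeR quasi-likelihood, Benjamini-Hochberg adjusted p = 3.1e-06). For these 5 genes both NASH libraries exceeded both control libraries.

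The level in B cells of the same NASH libraries was set beside each of these rises. This comparison was added after the values had been seen and used unscaled CPM. Of the 22 genes that rose, 18 were higher in members than in B cells of both NASH libraries and 16 more than 2 times higher. The ratio of members to B cells in NASH 1 and NASH 2 was 5.42 and 7.64 for Trem2, 4.4 and 16.3 for Mmp12, 9.15 and 12.6 for Lpl and 2.59 and 2.4 for Cd63. It was lower for Cd9, at 1.69 and 1.35, and for Gpnmb, a glycoprotein of lipid-laden macrophages, at 1.3 and 1.64. Spp1, osteopontin, had ratios of 0.321 and 1.24, Itgax, the integrin CD11c, 1.17 and 0.729, Capg, an actin-capping protein, 0.969 and 0.822, and Fabp5, a fatty acid binding protein, 0.366 and 0.749. B cells can make Cd9, Capg and Itgax themselves, so their level in B cells is not only free RNA.

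Gpnmb and Spp1 therefore need care in these cells. Gpnmb was at 2, 1, 130 and 120 UMIs in control 1, control 2, NASH 1 and NASH 2. The NASH level was 164 times the control level (95% counting interval 55.5 to 801, with the libraries of a diet pooled and their spread left out). After thinning, 17.9% and 9.66% of NASH members held a Gpnmb UMI against 4.17% and 4.4% of B cells. Spp1 was at 1.73 and 0.458 normalised CPM on the control diet and 42.4 and 65.9 on the NASH diet. After thinning, 4.46% and 6.28% of NASH members held a Spp1 UMI against 4.17% and 4.4% of B cells, so Spp1 stood near the background and is not read as expression of members. For Trem2 and Mmp12 the members stood above the B cells in both NASH libraries.

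Promoter sequences are shown for genes with the largest changes, as examples of the sequences in which motifs were searched. They are those of the 3 largest rises and 2 largest falls among the named genes that were called, with at least 10 UMIs in each diet and a RefSeq promoter. Each start listed for them is shown. Marco, whose fall was larger than that of Abhd11os, was not called and is left out. Each is the 250 bases before the start, 5′ to 3′ on the gene's strand, from RefSeq on GRCm38.p6. Capitals mark a match to any of 7 motifs searched on both strands: AP-1 (TGANTCA), E-box (CANGTG), GGAA-type (GAGGAA), and, given here by name alone, NF-kB, interferon, LXR-type and CLEAR. The E-box letters also lie within the CLEAR motif.
Mmp12, first start, chr9:7344147-7344396, plus strand: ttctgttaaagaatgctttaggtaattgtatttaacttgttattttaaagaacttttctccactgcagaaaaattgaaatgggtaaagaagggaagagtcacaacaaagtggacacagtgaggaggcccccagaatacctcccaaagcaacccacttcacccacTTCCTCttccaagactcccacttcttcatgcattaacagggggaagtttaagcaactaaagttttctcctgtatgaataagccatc
Mmp12, second start, chr9:7347124-7347373, plus strand: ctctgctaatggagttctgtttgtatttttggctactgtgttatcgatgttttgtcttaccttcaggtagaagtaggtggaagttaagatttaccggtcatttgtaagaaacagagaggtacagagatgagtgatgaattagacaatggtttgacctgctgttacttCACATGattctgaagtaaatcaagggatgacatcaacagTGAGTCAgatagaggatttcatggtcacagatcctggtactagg
Cd63, chr10:128909095-128909344, plus strand: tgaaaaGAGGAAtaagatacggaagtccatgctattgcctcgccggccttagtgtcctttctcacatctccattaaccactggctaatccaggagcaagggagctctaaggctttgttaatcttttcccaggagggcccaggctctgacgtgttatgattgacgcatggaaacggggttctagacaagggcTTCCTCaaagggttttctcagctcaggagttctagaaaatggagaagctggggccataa
Cd9, chr6:125494761-125495010, minus strand: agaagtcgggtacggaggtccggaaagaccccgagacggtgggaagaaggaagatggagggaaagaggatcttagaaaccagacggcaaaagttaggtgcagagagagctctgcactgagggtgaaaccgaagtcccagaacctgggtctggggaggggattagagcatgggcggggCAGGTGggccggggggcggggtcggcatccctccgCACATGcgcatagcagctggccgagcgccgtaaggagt
Cd163, chr6:124304401-124304650, plus strand: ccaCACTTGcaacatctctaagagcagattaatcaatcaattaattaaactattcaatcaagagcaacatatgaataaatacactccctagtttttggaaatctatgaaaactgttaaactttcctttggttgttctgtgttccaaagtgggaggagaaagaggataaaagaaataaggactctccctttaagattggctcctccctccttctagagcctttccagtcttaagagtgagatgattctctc
Abhd11os, chr5:135013158-135013407, minus strand: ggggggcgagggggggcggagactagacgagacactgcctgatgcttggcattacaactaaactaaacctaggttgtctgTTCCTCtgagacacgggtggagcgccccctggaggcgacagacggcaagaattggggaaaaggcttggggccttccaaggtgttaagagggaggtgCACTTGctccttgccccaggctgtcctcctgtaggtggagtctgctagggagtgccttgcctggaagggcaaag

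The first start of Mmp12 holds 1 GGAA-type match, and the second holds an AP-1 match that begins 44 bases before the start and an E-box match. Cd63 holds 2 GGAA-type matches, Cd9 2 E-box matches, Cd163 1 E-box match, and Abhd11os, a transcript opposite the gene Abhd11, 1 of each. These 5 genes follow from size of change among the genes that met the conditions on call, UMIs and promoter. The rule was settled after motif matches had been seen, and 2 earlier choices of promoters had been made with the matches in view. Over the table's whole window, which runs past the start, an AP-1 match was found in 8.33% of 1129 genes that rose, 5.55% of 775 that fell and 6.11% of 6787 tested genes with a promoter. Of the 12 largest rises 11 had a promoter and 5 of those a match, Gpnmb, Mmp12, Mmp13, Ms4a7 and Trem2, against none of 10 among the 12 largest falls. The E-box was found in 7 of those 11 against 6 of the 10, the GGAA-type motif in 6 against 4 and the interferon motif in 2 against none. The interferon motif was found in 5.58%, 2.58% and 4.08% of the genes that rose, fell and were tested, and the E-box in 44.7%, 43.7% and 43.2%. By promoter, the GGAA-type motif was in 27.1%, 29.4% and 27.6%, CLEAR in 0.593%, 0.945% and 0.852%, and NF-kB in 0.371%, 0.378% and 0.461%. The LXR-type motif was in 1 tested promoter and in none of a called gene. A match is a description of the letters and not a binding site.

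Of 21 tested LXR targets and genes of cholesterol efflux 8 rose and 3 fell. Apoe, the apolipoprotein of remnant particles, was at 13569.8 and 11135 normalised CPM on the control diet and 39561 and 41289 on the NASH diet, with a log2 fold change of 1.71 (SE 0.185, edgeR quasi-likelihood, Benjamini-Hochberg adjusted p = 7.09e-06). Apoc1, a smaller apolipoprotein, was at 5334 and 4354 normalised CPM on the control diet and 9751 and 10076 on the NASH diet (log2 fold change 1.03, SE 0.172, edgeR quasi-likelihood, Benjamini-Hochberg adjusted p = 0.000319). Members held 4.93 and 5.57 times the Apoe level of B cells in NASH 1 and NASH 2. Abca1, the pump that loads lipid onto apolipoprotein A-I, fell (log2 -0.46, edgeR quasi-likelihood, Benjamini-Hochberg adjusted p = 0.0442), a call lost in 8 of 13 alternatives, each of 3 left-out libraries (control 1, NASH 1 and NASH 2) among them (highest adjusted p = 0.454). Of 13 tested genes of cholesterol synthesis and uptake only 1 rose, Fdps, and 1 fell, Insig1, whose call was lost without NASH 2 (edgeR adjusted p = 0.0523). Of 29 tested lysosomal genes 11 rose, 4 at the fewest over the alternatives, and 2 fell. Among the rises was Ctsz, a lysosomal protease, at 359.6 and 414 normalised CPM on the control diet and 1081 and 1046 on the NASH diet (log2 fold change 1.46, SE 0.157, edgeR quasi-likelihood, Benjamini-Hochberg adjusted p = 7.02e-06).

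Of 13 tested class II genes of antigen presentation 11 rose and none fell, with a median log2 fold change of 1.47, and 7 rose at equal depth. H2-Ab1, the beta chain of the class II molecule I-A, was at 1291 and 934 normalised CPM on the control diet and 4505 and 3209 on the NASH diet (log2 fold change 1.79, SE 0.205, edgeR quasi-likelihood, Benjamini-Hochberg adjusted p = 3.71e-05). Cd74, the invariant chain, was at 3864 and 2759.8 normalised CPM on the control diet and 10001 and 8397 on the NASH diet (log2 fold change 1.47, SE 0.19, edgeR quasi-likelihood, Benjamini-Hochberg adjusted p = 3.71e-05), and H2-DMa, which helps load peptides, at 205 and 155 normalised CPM on the control diet and 626 and 507 on the NASH diet (log2 fold change 1.65, SE 0.175, edgeR quasi-likelihood, Benjamini-Hochberg adjusted p = 7.02e-06). In all 3 both NASH libraries exceeded both controls. B cells make these molecules, and 7 of the 11, H2-Aa, H2-Ab1, H2-Eb1, H2-DMa, H2-DMb2, Cd74 and Ciita, were not above the B cell level in both NASH libraries, so the share that free RNA gives cannot be read from B cells here.

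Interferon-stimulated genes moved one way as well. Of 28 tested 18 rose and none fell, with a median log2 fold change of 0.91; without NASH 2 the number was 9. Ifit3, an antiviral protein, was at 29.5 and 26.6 normalised CPM on the control diet and 92.3 and 129.9 on the NASH diet (log2 fold change 1.99, SE 0.215, edgeR quasi-likelihood, Benjamini-Hochberg adjusted p = 7.02e-06). Oas1a, which senses double-stranded RNA, was at 25.0 and 31.6 normalised CPM on the control diet and 98.7 and 116 on the NASH diet (log2 fold change 1.94, SE 0.209, edgeR quasi-likelihood, Benjamini-Hochberg adjusted p = 7.02e-06), and Zbp1, a sensor of nucleic acids, at 26.7 and 23.4 normalised CPM on the control diet and 74.3 and 111 on the NASH diet (log2 fold change 1.90, SE 0.229, edgeR quasi-likelihood, Benjamini-Hochberg adjusted p = 1.99e-05). All 18 were higher in members than in B cells of both NASH libraries. Fc receptors gave 3 rises and 1 fall of 7, with Fcgr1, the high-affinity receptor for IgG, at 109.6 and 75.6 normalised CPM on the control diet and 277 and 338 on the NASH diet (log2 fold change 1.73, SE 0.19, edgeR quasi-likelihood, Benjamini-Hochberg adjusted p = 1.33e-05).

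Of 31 tested nuclear subunits of oxidative phosphorylation 25 rose and none fell, with a median log2 fold change of 0.81. The number was 13 both at equal depth and at most 5% mitochondrial UMIs, and 12 of the 25 were above the B cell level in both NASH libraries. Only 1 was more than 2 times that level in both. Of 20 genes of glycolysis and hypoxia 10 rose (5 to 10 over the alternatives, with 5 at equal depth) and 2 fell (0 to 2). Of the 10 rises 6, Aldoa, Gapdh, Pgk1, Pgam1, Eno1 and Pkm, were not above the B cell level in both NASH libraries. B cells make the products of both lists themselves, so their level is not only free RNA here. Eno1, an enolase, was at 76.6 and 60.4 normalised CPM on the control diet and 228 and 255 on the NASH diet (log2 fold change 1.81, SE 0.176, edgeR quasi-likelihood, Benjamini-Hochberg adjusted p = 2.42e-06), and Ldha, lactate dehydrogenase, at 151 and 145 normalised CPM on the control diet and 396 and 426 on the NASH diet (log2 fold change 1.47, SE 0.154, edgeR quasi-likelihood, Benjamini-Hochberg adjusted p = 5.34e-06). Of 98 ribosomal protein genes 58 rose and 4 fell. The mitochondrial share of UMIs, which the filter caps, was lower in NASH members, and 6 of 13 mitochondrial genes fell and none rose.

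Immediate-early genes answer within minutes to signals and to cell handling. Of 25 tested 13 fell and 1 rose, with a median log2 fold change of -1.11, and 10 to 17 fell over the alternatives. Junb, a subunit of AP-1, was at 589 and 437 normalised CPM on the control diet and 157 and 140.4 on the NASH diet (log2 fold change -1.80, SE 0.176, edgeR quasi-likelihood, Benjamini-Hochberg adjusted p = 2.87e-06). Dusp1, a phosphatase of MAP kinases, was at 474 and 295 normalised CPM on the control diet and 88.1 and 110.2 on the NASH diet (log2 fold change -1.95, SE 0.231, edgeR quasi-likelihood, Benjamini-Hochberg adjusted p = 0.000158), and Ets2, a transcription factor, at 117 and 118 normalised CPM on the control diet and 24.4 and 25.9 on the NASH diet (log2 fold change -2.22, SE 0.208, edgeR quasi-likelihood, Benjamini-Hochberg adjusted p = 1.59e-06). Jdp2, a repressor of AP-1, was at 93.6 and 53.6 normalised CPM on the control diet and 8.49 and 17.9 on the NASH diet (log2 fold change -2.39, SE 0.373, edgeR quasi-likelihood, Benjamini-Hochberg adjusted p = 0.00123). Within this list Jun itself was at 99.5 and 71.4 normalised CPM on the control diet and 58.3 and 110.2 on the NASH diet and did not pass (log2 fold change 0.01, SE 0.288, edgeR quasi-likelihood, Benjamini-Hochberg adjusted p = 0.988). Egr1 and Fosl2 differed by more than 2 times between the 2 control libraries and did not pass either (adjusted p = 0.302 and 0.151 in the same edgeR test).

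Inflammatory messages were called in both directions. Of 21 tested cytokine and NF-kB feedback genes 4 rose and 4 fell, not far from the shares over all genes, 16.5% and 11.8%. The falls numbered 0 to 8 over the alternatives. Il1rn, the antagonist of the interleukin-1 receptor, was at 44.4 and 47.2 normalised CPM on the control diet and 88.1 and 150.2 on the NASH diet (log2 fold change 1.40, SE 0.23, edgeR quasi-likelihood, Benjamini-Hochberg adjusted p = 0.000473), while Tnf and Il1b fell (log2 -1.27 and -1.37, adjusted p = 0.0159 and 0.0021 under edgeR's quasi-likelihood test). The Tnf call was lost without control 2 and without either NASH library, and the Il1b call at equal depth (highest adjusted p = 0.0706 and 0.0649, edgeR). Il6 was at 52 UMIs over the control and 3 over the NASH members, a control level 8.8 times the NASH level (95% counting interval 2.85 to 44.1). That interval pools the libraries of a diet and leaves out the spread between them. Of 19 chemokine genes 5 rose and none fell. Ccl5, which attracts T cells and monocytes, was at 18.0 and 26.1 normalised CPM on the control diet and 133 and 174 on the NASH diet (log2 fold change 2.82, SE 0.224, edgeR quasi-likelihood, Benjamini-Hochberg adjusted p = 2.69e-07), below the level in B cells at ratios of 0.475 and 0.765. Ccl24, an eotaxin made by macrophages, was at 388 and 295 normalised CPM on the control diet and 515 and 621 on the NASH diet (log2 fold change 0.73, SE 0.17, edgeR quasi-likelihood, Benjamini-Hochberg adjusted p = 0.0039), and its call was lost without NASH 2, without TMM factors and at most 5% mitochondrial UMIs (highest adjusted p = 0.0744 in the same edgeR test). Among adhesion genes 3 rose and 6 fell of 15; Itgal, a chain of the integrin LFA-1, was at 680.0 and 819.7 normalised CPM on the control diet and 370.2 and 315 on the NASH diet (log2 fold change -1.14, SE 0.164, edgeR quasi-likelihood, Benjamini-Hochberg adjusted p = 9.33e-05).

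Survival genes gave 5 rises and 3 falls of 26, close to the shares over all genes. Bcl2a1b, an anti-apoptotic relative of Bcl2 with near-identical copies in the mouse, was at 115 and 168 normalised CPM on the control diet and 421 and 468 on the NASH diet (log2 fold change 1.66, SE 0.18, edgeR quasi-likelihood, Benjamini-Hochberg adjusted p = 1.02e-05); the division of reads among its copies is uncertain. Bcl2 was at 6.24 and 6.87 normalised CPM on the control diet and 26.5 and 21.5 on the NASH diet (log2 fold change 1.84, SE 0.347, edgeR quasi-likelihood, Benjamini-Hochberg adjusted p = 0.000807), was not above the B cell level in both NASH libraries and lost its call at equal depth (adjusted p = 0.146). In control 1 and control 2, 36.5% and 31.4% of unthinned B cells held a Bcl2 UMI against 2.46% and 2.46% of members. The B cell level of Bcl2 is therefore not only free RNA. Efferocytosis genes gave 2 rises and 2 falls of 18, below and near the shares over all genes, 16.5% and 11.8%. Among the falls was Mertk, a receptor for dying cells, at 339.8 and 293 normalised CPM on the control diet and 165 and 184 on the NASH diet (log2 fold change -0.86, SE 0.159, edgeR quasi-likelihood, Benjamini-Hochberg adjusted p = 0.000748). The remaining lists gave, as rises and falls of the genes tested, 3 and 2 of 12 for scavenger receptors, 6 and 2 of 17 for class I, 2 and 0 of 11 for heat shock, 1 and 3 of 14 for glucocorticoid response, 7 and 0 of 15 for matrix mediators, and 1 and 3 of 15 for the unfolded protein response. The rises of heat shock and the falls of class I were near the shares over all genes. Over the alternatives the rises numbered 2 to 7 for class I, with 2 at equal depth, and 2 to 9 for matrix mediators, with 4 under DESeq2 and 2 at equal depth. The falls numbered 0 to 4 for class I, 1 to 6 for glucocorticoid response and 0 to 8 for the unfolded protein response. Those of the survival list ranged over 1 to 6 rises and 0 to 8 falls, of chemokines over 2 to 9 rises, of cytokine and feedback genes over 2 to 4 rises and 0 to 8 falls, and of efferocytosis over 0 to 3 rises and 1 to 5 falls.

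**Figure D4:**
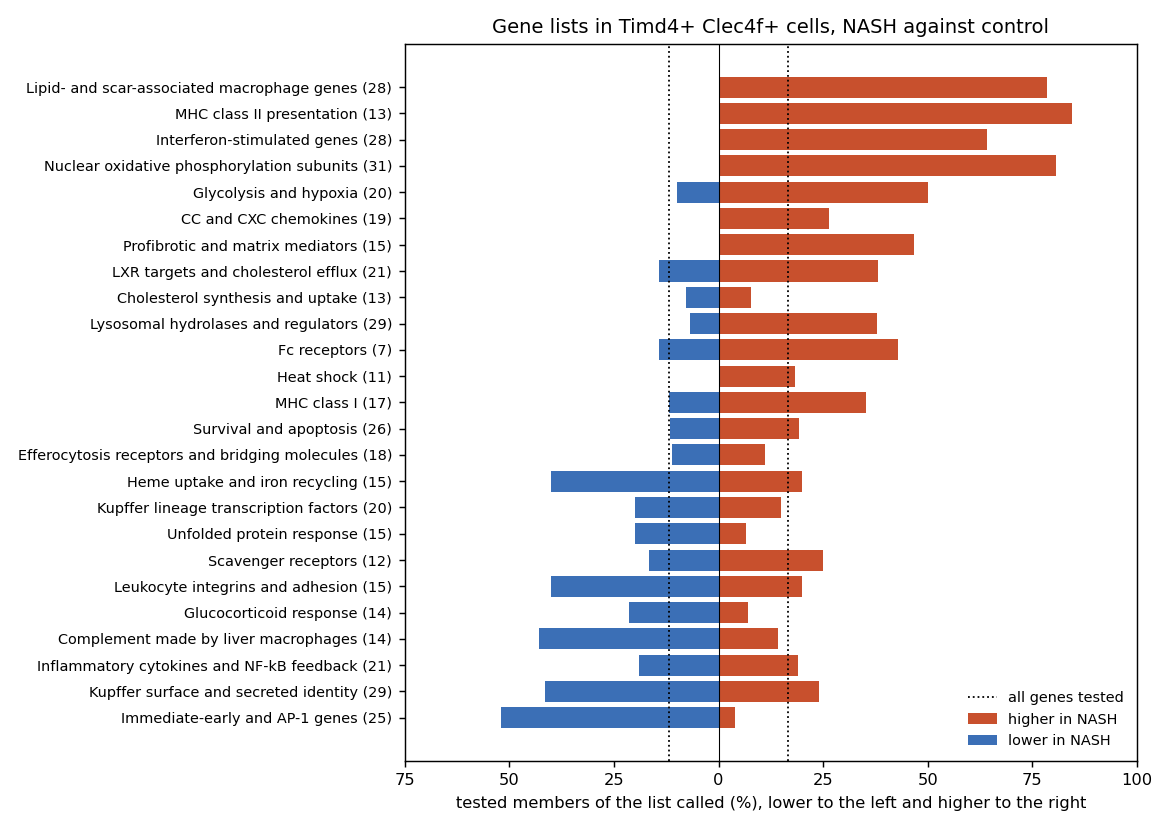
Share of the tested members of each gene list called lower (left, blue) or higher (right, red) in NASH, as a percentage, with the number tested in parentheses; dotted lines mark the shares over all genes tested, 11.8% lower and 16.5% higher. Lipid- and scar-associated, class II, interferon-stimulated and oxidative phosphorylation genes have no call to the left.

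Markers of other cell types moved with diet too. Of 14 tested monocyte and recruited macrophage markers 9 rose and 1 fell, and their summed level was 613 and 458 normalised CPM on the control diet and 1146 and 1078 on the NASH diet. None of the 9 was above the B cell level in both NASH libraries, and only 1 was called at equal depth. Whether B cells make some of the 9 themselves was not tested. Their level in B cells need not be only free RNA, so this comparison cannot tell how much of the members' level is free RNA. Ccr2, the receptor that draws monocytes from the marrow, was at 6.24 and 2.75 normalised CPM on the control diet and 42.4 and 31.4 on the NASH diet (log2 fold change 2.92, SE 0.358, edgeR quasi-likelihood, Benjamini-Hochberg adjusted p = 2.33e-05), with 4.46% and 3.38% of thinned NASH members holding a UMI against 4.17% and 9.89% of B cells. Cx3cr1, the fractalkine receptor, was at 5.55 and 5.49 normalised CPM on the control diet and 46.7 and 108 on the NASH diet (log2 fold change 3.84, SE 0.431, edgeR quasi-likelihood, Benjamini-Hochberg adjusted p = 0.000361), with 5.36% and 6.76% against 8.33% and 7.69%. These shares of Ccr2 and Cx3cr1 were at or near those in B cells and are not read as expression by members at large. The level of Cx3cr1 was uneven over members with few and many Timd4 UMIs, as given below. Whether some members express it was not tested.

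Messages of hepatocytes and of endothelium were lower in NASH members. Of 16 tested hepatocyte markers 13 fell (5 to 15 over the alternatives) and none rose, and their summed level was 1391 and 1349 normalised CPM on the control diet and 670.5 and 528 on the NASH diet. Alb, albumin, was at 108 and 116 normalised CPM on the control diet and 36.1 and 36.9 on the NASH diet (log2 fold change -1.61, SE 0.198, edgeR quasi-likelihood, Benjamini-Hochberg adjusted p = 2.26e-05). Mup3, a major urinary protein with near-identical copies and thus uncertain, was at 62.8 and 67.8 normalised CPM on the control diet and 2.12 and 3.69 on the NASH diet (log2 fold change -4.37, SE 0.342, edgeR quasi-likelihood, Benjamini-Hochberg adjusted p = 2.37e-07). Of 13 tested endothelial markers 9 fell (1 to 10 over the alternatives) and none rose, with summed levels of 808 and 833 against 449.8 and 425; Cdh5, described above, is the most abundant of them. Dendritic cell markers summed to 556, 541, 879 and 1046, neutrophil markers to 241, 100.3, 91.2 and 183, and B and plasma cell markers outside the gate to 80.1, 96.6, 18.0 and 43.7. The part of these messages in the results was not tested.

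Members also varied among themselves with the number of Timd4 UMIs, which is given as a description added after the values were seen. In NASH 1 the members with 1, 2 and 3 or more Timd4 UMIs had Cd63 at 812, 767 and 369 normalised CPM, and in NASH 2 at 566, 431 and 248. Gpnmb stood at 206, 141 and 65.5 and at 84.7, 110.0 and 44.9, and Trem2 at 898, 834 and 675 and at 772, 763 and 588. These 3 genes, chosen after their values were seen, were lowest at 3 or more UMIs in both libraries. Other lipid-associated genes were not: Cd9 stood at 415, 258 and 270 in NASH 1 and Spp1 at 74.3, 30.4 and 81.3 in NASH 2. Folr2 stood at 1328, 1025 and 1843 and at 1181, 1531 and 1920.0, highest at 3 or more. Cd163 was at 0, 30.7 and 10.5 and at 10.3, 28.1 and 30.9, so it was low in every stratum. Cx3cr1, of the monocyte list, stood at 72.9, 30.7 and 26.2 in NASH 1 and at 244, 110.0 and 14.0 in NASH 2. Ccr2 stood at 52.8, 6.14 and 47.1 in NASH 1 and at 35.1, 44.5 and 21.0 in NASH 2. The strata differ in depth as well, with median UMIs of 8109, 8469.5 and 11129 in NASH 1 and 6662, 8062.5 and 9987.5 in NASH 2.

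Kupffer and lipid-associated messages were found in the same members. After thinning to 2000 UMIs, 69 of 112 NASH 1 members and 116 of 207 NASH 2 members held UMIs of both Vsig4 and Trem2, against 39 of 606 and 26 of 449 in the control libraries. Cd163 and Trem2 were together in 2 and 5 NASH members. Trem2 and Cd9 were together in 36 and 41 NASH members and in 1 and 1 control members. These counts follow the level of each gene and hold free RNA, and no test was made on them.

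Within a diet the libraries also differed. This was counted over the 2763 genes with a mean of at least 50 normalised CPM in either diet. Mitochondrial, ribosomal protein, Gm-numbered, Rik and a few other kinds of gene were left out. Between the control libraries 45 of them (1.63%) differed by more than 2 times on CPM plus 1, and between the NASH libraries 40 (1.45%). Genes of lower level, which count noise affects more, are not in these shares. Marco, given above, was higher in control 2, and Fkbp5, a glucocorticoid target, was higher in control 1, at 144 and 15.1 normalised CPM. In the NASH libraries Saa3, an acute-phase protein, was at 0 and 167. None of the 3 passed the diet test (adjusted p = 0.173, 0.459 and 0.335 by edgeR's quasi-likelihood test).

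The last comparison asks whether the diet effect was the same in Clec4f+ cells with and without a Timd4 UMI. Of 9344 genes tested, 171 (1.83%) differed, 78 (0.835%) in favour of Timd4+ cells and 93 (0.995%) in favour of Timd4- cells, by edgeR's quasi-likelihood test of the interaction. Without TMM factors the split was 129 and 42. The calls fell to 25 and 54 without control 1, to 18 and 22 without control 2 and to 28 and 35 without NASH 2. Library was a block in this test, so spread that both gates of a library share is taken out of its p-values. However small, they rest on the same 2 libraries per diet. Levels in the 2 gates are themselves part of the rule and were not tested. The Timd4- cells of the control libraries were shallower than the members, with medians of 2544 and 2009 UMIs, while those of the NASH libraries had 8258 and 7851. A cell of the control libraries can therefore lack a Timd4 UMI for want of depth, and the mitochondrial shares of these cells were 6.81%, 7.07%, 3.59% and 3.23%.

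C6 fell less in the Timd4+ cells. In Timd4- cells it was at 822 and 845 normalised CPM on the control diet and 87.8 and 138 on the NASH diet, against 898 and 976 normalised CPM on the control diet and 325 and 454 on the NASH diet in Timd4+ cells, a difference of the diet effects of 1.61 on the log2 scale (SE 0.093, edgeR quasi-likelihood, Benjamini-Hochberg adjusted p = 3.42e-20). Slc40a1 was at 2422 and 3170.2 normalised CPM on the control diet and 773 and 670.2 on the NASH diet in Timd4- cells, a difference of the diet effects of 0.69 on the log2 scale (SE 0.067, edgeR quasi-likelihood, Benjamini-Hochberg adjusted p = 6.25e-11). Sdc3, a syndecan, and Hpgd, which inactivates prostaglandins, differed the same way, by log2 0.54 and 0.65 (adjusted p = 9.58e-08 and 1.35e-07 in that edgeR test). Of the Kupffer genes that did not fall in Timd4+ cells, Vsig4 was at 2323 and 2466 normalised CPM on the control diet and 1997 and 1884 on the NASH diet in Timd4- cells, a difference of the diet effects of 0.42 on the log2 scale (SE 0.0642, edgeR quasi-likelihood, Benjamini-Hochberg adjusted p = 9.2e-06), and Cd5l at 3685 and 4418 normalised CPM on the control diet and 5140.4 and 5634 on the NASH diet, a difference of the diet effects of 0.37 on the log2 scale (SE 0.0609, edgeR quasi-likelihood, Benjamini-Hochberg adjusted p = 5.2e-05). Ccl5 was at 48.1 and 111 normalised CPM on the control diet and 142 and 148 on the NASH diet in Timd4- cells and at 18.0 and 26.1 normalised CPM on the control diet and 133 and 174 on the NASH diet in Timd4+ cells, a difference of the diet effects of 1.90 on the log2 scale (SE 0.219, edgeR quasi-likelihood, Benjamini-Hochberg adjusted p = 1.2e-08). Folr2 rose more in Timd4+ cells, by log2 0.45 (adjusted p = 0.000281 in that edgeR test). The small differences of Vsig4, Cd5l and Folr2 are given for the main setting alone. Over all genes the calls in favour of Timd4+ cells fell from 78 to 15 with DESeq2 and to 11 at equal depth.

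Of 15 class II genes tested for this difference 5 passed, H2-Aa, H2-Ab1, H2-DMa, Cd74 and Ctss, all with a smaller rise in Timd4+ cells. Cd74 was at 5166 and 3548 normalised CPM on the control diet and 19948 and 18903 on the NASH diet in Timd4- cells, a difference of the diet effects of -0.69 on the log2 scale (SE 0.0624, edgeR quasi-likelihood, Benjamini-Hochberg adjusted p = 4.49e-12). H2-Ab1 differed by -0.51 (adjusted p = 3.69e-05 under edgeR's quasi-likelihood test). Cd207, langerin, was at 237 and 156 normalised CPM on the control diet and 666 and 647 on the NASH diet in Timd4- cells and at 221 and 128 normalised CPM on the control diet and 194 and 255 on the NASH diet in Timd4+ cells, a difference of the diet effects of -1.35 on the log2 scale (SE 0.127, edgeR quasi-likelihood, Benjamini-Hochberg adjusted p = 1.26e-10). Tmem176b, a membrane protein of antigen-presenting cells, was at 199 and 303 normalised CPM on the control diet and 357 and 373 on the NASH diet and at 183 and 343 normalised CPM on the control diet and 155 and 175 on the NASH diet in Timd4- and Timd4+ cells, a difference of the diet effects of -1.18 on the log2 scale (SE 0.122, edgeR quasi-likelihood, Benjamini-Hochberg adjusted p = 2.8e-10); in NASH members it was below the B cell level in both libraries.

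Of the 28 lipid- and scar-associated genes 3 passed this test, Lgals3, Ctsd and Atf3, in favour of Timd4- cells. Trem2 was among those that did not. It was at 42.8 and 62.5 normalised CPM on the control diet and 1119 and 935 on the NASH diet in Timd4- cells (difference of the diet effects -0.23 on the log2 scale, SE 0.177, edgeR quasi-likelihood, Benjamini-Hochberg adjusted p = 0.748). Mmp12, Cd9 and Cd63 had differences of 0.58, -0.24 and 0.23, with adjusted p from 0.637 to 0.901 under edgeR's quasi-likelihood test. A difference that missed the threshold does not show that the effects were alike. Of the 8 interaction genes with the smallest p, 5 held at equal depth and only C6 held at most 5% mitochondrial UMIs, which left 51 Timd4- cells in each control library, and Cd74 then changed sign (0.084). Ccl5 also lost its call without control 2, and Cd207 with Timd4 of at least 2 UMIs.

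**Figure D5:**
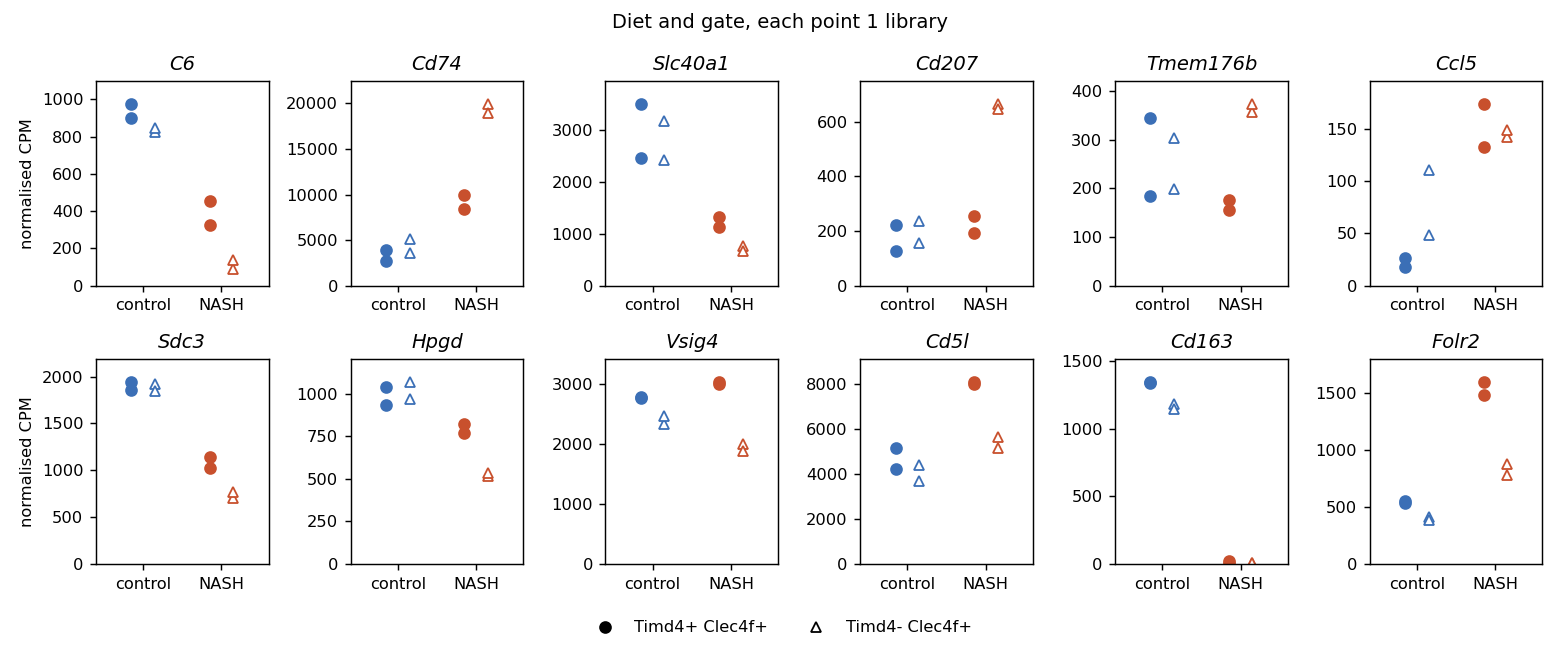
Normalised CPM in Timd4+ Clec4f+ (filled circles) and Timd4- Clec4f+ cells (open triangles) on each diet, each point 1 library, for the 8 genes with the smallest interaction p and 4 Kupffer genes. C6 falls to 325 and 454 in Timd4+ and to 87.8 and 138 in Timd4- cells of the NASH libraries, while Cd74 rises further in Timd4- cells.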

How the data were processed

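RNA was measured by 10x Genomics droplet sequencing in 4 libraries of sorted liver leukocytes, 2 per diet. The deposited values are counts, raw UMIs per gene and cell for 27998 genes, made by the authors with Cell Ranger and Seurat on mm10, per the submitters' processing notes, which give no versions. The calling of cells, filters applied ahead of deposit and use of strand in counting were not given in the sources used here. Positions of genes are from GENCODE vM21 on mm10.

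UMIs were summed per library over members, since cells are not replicates. The diet was tested with edgeR 4.0.16 (limma 3.58.1, R 4.3.3): filterByExpr, TMM factors, robust quasi-likelihood fit and Benjamini-Hochberg adjustment over all genes tested at 0.05. Gate genes stayed in the library sums and out of the tests. The SE given with a log2 fold change is not reported by edgeR. It is the size of the log2 fold change divided by the square root of the test's F statistic, and so is approximate. The second test was the gate by diet term over 8 sums (Timd4+ and Timd4- cells of each library) with library as a block. Cells were read with Python 3.11.15, numpy 2.4.6, scipy 1.17.1 and pandas 2.3.3, and figures drawn with matplotlib 3.10.9. Shares were thinned to 2000 UMIs per cell with exact 95% intervals. B cells, whose unscaled CPM served as the free RNA background, had at least 1 UMI each of Cd79a and Cd79b and a C1q sum under 5 per 1000. Putative doublets were kept, except in 1 alternative. The fits were tested on simulated counts. Other alternatives were DESeq2 1.42.0, other scaling, no filter, Timd4 of at least 2 UMIs, equal depth, at most 5% mitochondrial UMIs, each library left out and a replicate block.

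The members, lists and alternatives were chosen with earlier results of these data known. Named genes were the 12 largest rises and 12 largest falls among called genes whose libraries did not overlap and whose mean was at least 50 CPM in the higher diet, the 4 smallest p of each list, the 8 smallest interaction p, and 21 genes named in any case. The rule for the largest changes was put on the TMM scale after the list on unscaled CPM had been seen. The scale put Mmp13, S100a4 and Spp1 in place of Capg, Ccl5 and Tmsb10, and Ier3 in place of Serpina3k. Maf, Zeb2, Rxra, Klf4, Lpl, Abca1, Fdps, Insig1, Tnf, Il1b, Egr1, Fosl2, Jun, Fkbp5, Saa3 and other genes outside that rule were chosen after their values were seen, as were the B cell comparison with its limits of 1 and 2 times, the ratios of low counts, the strata of Timd4 UMIs, the further thinning draws (1 exploratory draw more was looked at) and the genes drawn in the plots of levels and of all genes. The printed promoters are the third set: both earlier ones were picked with motif matches in view, and the minimum of 10 UMIs and the numbers 3 and 2 were settled with candidates and matches known.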

Additional observations from a re-analysis of the deposited data

Results flagged for a closer look

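For 8 genes the diet effect differed between Timd4+ and Timd4- Clec4f+ cells, by edgeR's quasi-likelihood test of that difference. On the log2 scale, Timd4+ minus Timd4-, the differences were 1.61 for C6, 0.69 for Slc40a1, 1.90 for Ccl5, 0.54 for Sdc3, 0.65 for Hpgd, -0.69 for Cd74, -1.35 for Cd207 and -1.18 for Tmem176b. Depth and mitochondrial share differ between the diets and gates. At equal depth 5 of the 8 held, at most 5% mitochondrial UMIs 1 of 8, C6, and the part of either in the differences was not tested further.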

How the results depend on the processing

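The share kept its direction in each alternative; its log2 ratio was -3.16 at equal depth and -2.71 to -2.06 with a library left out. For the diet test, higher and lower calls numbered 836 and 2312 without scaling factors, 863 and 359 with DESeq2, 423 and 271 at equal depth, where fewer genes and UMIs were tested, and 639 and 505 at most 5% mitochondrial UMIs. With a library left out they numbered 951 to 1344 and 552 to 967. Without factors the median of all genes moved from -0.04 to -0.33. Calls that changed sign numbered 39 at equal depth, 3 at most 5% mitochondrial UMIs and none under the others. Deviations of same-numbered libraries were not correlated over 8776 genes (r = -0.014). Many of these genes have low counts, so this cannot exclude a shared day or batch. Between library 2 and library 1, Cxcl13 moved the same way in control and NASH (log2 2.80 and 2.16) and Saa3 opposite ways (-2.55 and 7.40). With the replicate block 1498 and 1108 were called. For the interaction, genes in favour of Timd4+ and of Timd4- cells numbered 129 and 42 without factors, 15 and 15 with DESeq2, 50 and 161 without a filter, 11 and 16 at equal depth and 15 and 9 at most 5% mitochondrial UMIs. With a library left out they numbered 18 to 71 and 22 to 64; without control 2, 18 and 22. The Cd74 difference was 0.084 (adjusted p = 0.96 by edgeR) at most 5% mitochondrial UMIs, where the control Timd4- gate held 51 cells per library. The causes of the other shifts were not tested. The 1056262 UMIs of NASH 1 limit the precision of low genes.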
